A study of Homo sapiens with 24 samples.

Results

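NF-kB subunits, NF-kB inhibitors and inflammatory NF-kB target genes were followed by RNA-seq in 2 human prostate cancer sublines after siRNA against POM121, a nucleoporin that anchors the nuclear pore in the nuclear membrane. The set holds 10 genes chosen by symbol: the subunits NFKB1, NFKB2, RELA and RELB, the inhibitors NFKBIA and TNFAIP3, and the targets SOD2, CXCL1, CXCL2 and BIRC3. They are 10 of 25277 gene symbols in the deposited table, each on 1 line of it. In 22Rv1DR the groups were siPOM121 construct 2, siPOM121 construct 1 and control, and DU145DR had the same 3 groups. As far as the labels go, the 6 groups differ in line, in construct and in the lanes given below. 22Rv1DR and DU145DR are sublines that the submitters made from the prostate cancer lines 22Rv1 and DU145 and call aggressive; they are widely known as docetaxel-resistant cells. All groups were grown in the same serum-containing medium, and no added inflammatory stimulus is described. The constructs were commercial siRNAs, the labels call the remaining arm Control without saying what it received, and the time between treatment and harvest is not given in the sources used here. Each group has 2 libraries, each read on 2 lanes that were averaged, which makes 12 libraries from 24 samples. Libraries carry the names of their labels: in 22Rv1DR 4C and 5C are construct 2, 4B and 5B construct 1 and 4A and 5A control, and in DU145DR 1C and 2C are construct 2, 1B and 2B construct 1 and 1A and 2A control. The labels do not state whether each library had a culture of its own; the p-values therefore speak of library-to-library spread, which may be technical.

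NF-kB is a family of dimeric transcription factors that switch on genes of inflammation and cell survival. In resting cells inhibitor proteins hold the dimers in the cytoplasm; after a signal such as TNF or interleukin-1, IKK kinases mark the inhibitor for destruction and the dimers pass through the nuclear pore. NFKB1 and RELA form the classical dimer, NFKB2 and RELB the alternative one, and several targets, among them NFKBIA and TNFAIP3, encode brakes on the pathway. In prostate cancer NF-kB activity has been linked to tumour progression and to survival under chemotherapy.

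Promoters of 6 of the genes are printed first. They were picked from the genes that hold the strict kB motif described below, the kind of sequence NF-kB dimers are known to bind. They were not picked for how the genes responded: NFKBIA and BIRC3 passed in no comparison of a construct with control. SOD2, which did, holds no strict match and is not shown. NFKB2 holds strict matches too and is not printed. They are RefSeq windows of 250 bases ending at the transcription start, on GRCh38.p14, written 5′ to 3′ on the strand of the gene; 9 of the 10 genes have an entry, with 16 windows, and RELB is not shown. Capitals mark matches on either strand to a strict kB motif, GGG and TTCC with any 3 bases between them, so a match on the opposite strand reads GGAA, 3 bases and CCC. In CXCL2 and CXCL1 the capitals hold 2 overlapping matches, 1 on each strand. CXCL2 (chr4:74099196-74099445, minus strand), CXCL1 (chr4:73869143-73869392, plus), TNFAIP3 (chr6:137867009-137867258, plus), NFKBIA (chr14:35404750-35404999, minus), BIRC3 (chr11:102317234-102317483, plus) and the upstream window of NFKB1 (chr4:102501109-102501358, plus) read as follows.
CXCL2: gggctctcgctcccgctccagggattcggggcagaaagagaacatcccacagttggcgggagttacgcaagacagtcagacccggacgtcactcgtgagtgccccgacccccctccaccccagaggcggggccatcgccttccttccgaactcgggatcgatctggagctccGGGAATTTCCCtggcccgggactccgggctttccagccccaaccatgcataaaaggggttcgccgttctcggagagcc
CXCL1: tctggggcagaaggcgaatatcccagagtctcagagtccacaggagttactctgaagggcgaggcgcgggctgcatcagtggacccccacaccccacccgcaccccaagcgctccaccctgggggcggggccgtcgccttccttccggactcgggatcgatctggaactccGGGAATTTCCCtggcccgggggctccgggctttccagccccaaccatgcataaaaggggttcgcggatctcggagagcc
TNFAIP3: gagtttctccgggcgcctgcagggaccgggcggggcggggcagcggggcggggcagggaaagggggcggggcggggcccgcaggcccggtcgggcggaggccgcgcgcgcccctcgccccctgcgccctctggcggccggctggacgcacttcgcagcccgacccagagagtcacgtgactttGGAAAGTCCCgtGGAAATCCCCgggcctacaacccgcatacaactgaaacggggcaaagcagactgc
NFKBIA: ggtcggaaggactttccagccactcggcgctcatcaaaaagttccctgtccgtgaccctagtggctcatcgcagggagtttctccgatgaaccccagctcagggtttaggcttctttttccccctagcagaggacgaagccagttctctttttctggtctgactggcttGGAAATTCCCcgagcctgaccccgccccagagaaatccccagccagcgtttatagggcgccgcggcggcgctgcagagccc
BIRC3: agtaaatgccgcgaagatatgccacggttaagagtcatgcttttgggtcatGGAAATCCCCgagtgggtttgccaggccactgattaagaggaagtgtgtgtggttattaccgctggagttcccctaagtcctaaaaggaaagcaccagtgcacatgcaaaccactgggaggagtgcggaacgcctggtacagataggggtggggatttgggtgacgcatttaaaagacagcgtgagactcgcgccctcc
NFKB1: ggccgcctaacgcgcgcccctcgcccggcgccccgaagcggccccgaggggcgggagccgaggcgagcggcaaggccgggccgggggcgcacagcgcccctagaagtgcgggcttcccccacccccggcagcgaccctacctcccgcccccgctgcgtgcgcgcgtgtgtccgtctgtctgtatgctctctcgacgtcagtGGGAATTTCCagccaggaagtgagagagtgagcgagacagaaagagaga

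Of the 9 genes with an entry, 7 held the strict kB motif in at least 1 window, which was the case for 6.87% of the 27305 genes in the RefSeq table. Among windows it was 8 of 16, against 5.67% of all 35116 windows. A looser motif, GGG and CC with any 5 bases between them, which contains every strict match, was in 57.8% of all genes. It was also in each of the 9 genes with an entry, RELA and SOD2 among them. Counted in bases from the start, matches began at -78 and -77 in CXCL2 and at -79 and -78 in CXCL1, nearly the same place in these chemokine genes, whose windows were 68% identical in an alignment. They began at -67 and -55 in TNFAIP3, at -81 in NFKBIA, at -199 in BIRC3 and at -49 in NFKB1. NFKB2 held 3 matches over 2 of its 3 windows. RELA, with 2 windows, and SOD2, with 4, held no strict match, which says only that these letters are not in these windows. The genes were listed as NF-kB genes to begin with, and a match is a description of the sequence, not evidence of binding in these cells.

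Levels are FPKM (fragments per length of transcript and library size), and values at or under 1 FPKM were listed at 0 in the table, so 0 can mean a low level. Of the 10 genes, all were above that floor in DU145DR and 6 in 22Rv1DR, and all 10 passed the filter on low values. Sequencing depth is unknown; 12361 to 12569 symbols per sample were above the floor in 22Rv1DR and 11884 to 12126 in DU145DR. POM121 itself stood at 7.07 FPKM with construct 2 and 7.75 with construct 1 in 22Rv1DR, against 38.2 in controls, and at 12.8 FPKM with construct 2 and 13.4 with construct 1 in DU145DR, against 21.4 in controls, so the target transcript was less depleted in DU145DR. The construct 2 libraries of 22Rv1DR, 4C and 5C, stood apart from each other: ribosomal protein genes took 18.3% and 12.1% of summed FPKM in 4C and 5C, 16.9% and 16.4% with construct 1, and 15% and 14.8% in controls (8.62% to 9.32% in DU145DR). Control library 4A was read on other lanes than the remaining 22Rv1DR libraries, so values without 4A come from 1 pair of lanes. The epithelial keratins KRT8 and KRT18 were present in both lines, while KLK3 (prostate-specific antigen) and CDH1 (E-cadherin) were above the floor in 22Rv1DR and listed at 0 in DU145DR. Of 10 leukocyte markers 9 were listed at 0 in every library, the exception being CD68, and all 5 endothelial markers were listed at 0.

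With siPOM121, the subunit NFKB1 fell with construct 2 in 22Rv1DR, while in DU145DR the brake TNFAIP3, the mitochondrial enzyme SOD2 and the chemokines CXCL1 and CXCL2 rose with both constructs. In 22Rv1DR, 1 of 6 genes above the floor, NFKB1, was lower with construct 2 at an adjusted p under 0.05 in limma, which is what passing means below (20.6% of all 13622 tested symbols were lower and 14.5% higher, 35.1% in all). With construct 1, 1 of 6, SOD2, was higher (12% of symbols higher and 15.2% lower, 27.1% in all). In each of these a count of 1 of 6 is under the share of symbols that passed in all. In DU145DR 4 of 10 genes were higher with construct 2 (11% of symbols higher and 5.62% lower, 16.6% in all), and the same 4 with construct 1 (12.2% higher and 7.62% lower, 19.8% in all). Among these, CXCL1 was at the floor in controls and passed the filter on low values only through the construct libraries, which fixed its direction. The median log2 fold change in 22Rv1DR, over the 5 genes above the floor in controls, was -0.05 with construct 2 and -0.04 with construct 1, beside -0.05 and -0.01 over all symbols above the floor. In DU145DR, over the 10 genes, it was 0.14 and 0.11, beside 0.02 and 0.01 over all symbols. Both constructs of a line were set against the same 2 control libraries, so their results are not independent of each other. Whether fewer cells of a type carry a transcript or each cell carries less of it cannot be told apart in such bulk samples. Beside these changes, the 1 fibroblast marker of 7 above the floor in DU145DR, COL1A1, stood at 2.18 to 2.26 FPKM with construct 2 and 2.41 to 2.93 with construct 1, against 1.04 to 1.09 in controls. In 22Rv1DR 2 of the 7 were above the floor, LUM at 42.6 to 55.3 FPKM and COL1A1 at 7.65 to 8.95. Summed, they stood at 54.9 to 63.6 FPKM with construct 2 and 53 to 55.8 with construct 1, against 50.8 to 51 in 22Rv1DR controls. The leukocyte marker CD68, which tumour cells can also express, stood at 12.6 to 13.2 FPKM with construct 2 and 12.5 to 12.6 with construct 1, against 15.5 to 15.7 in DU145DR controls; their part in the results was not tested.

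**Figure D1:**
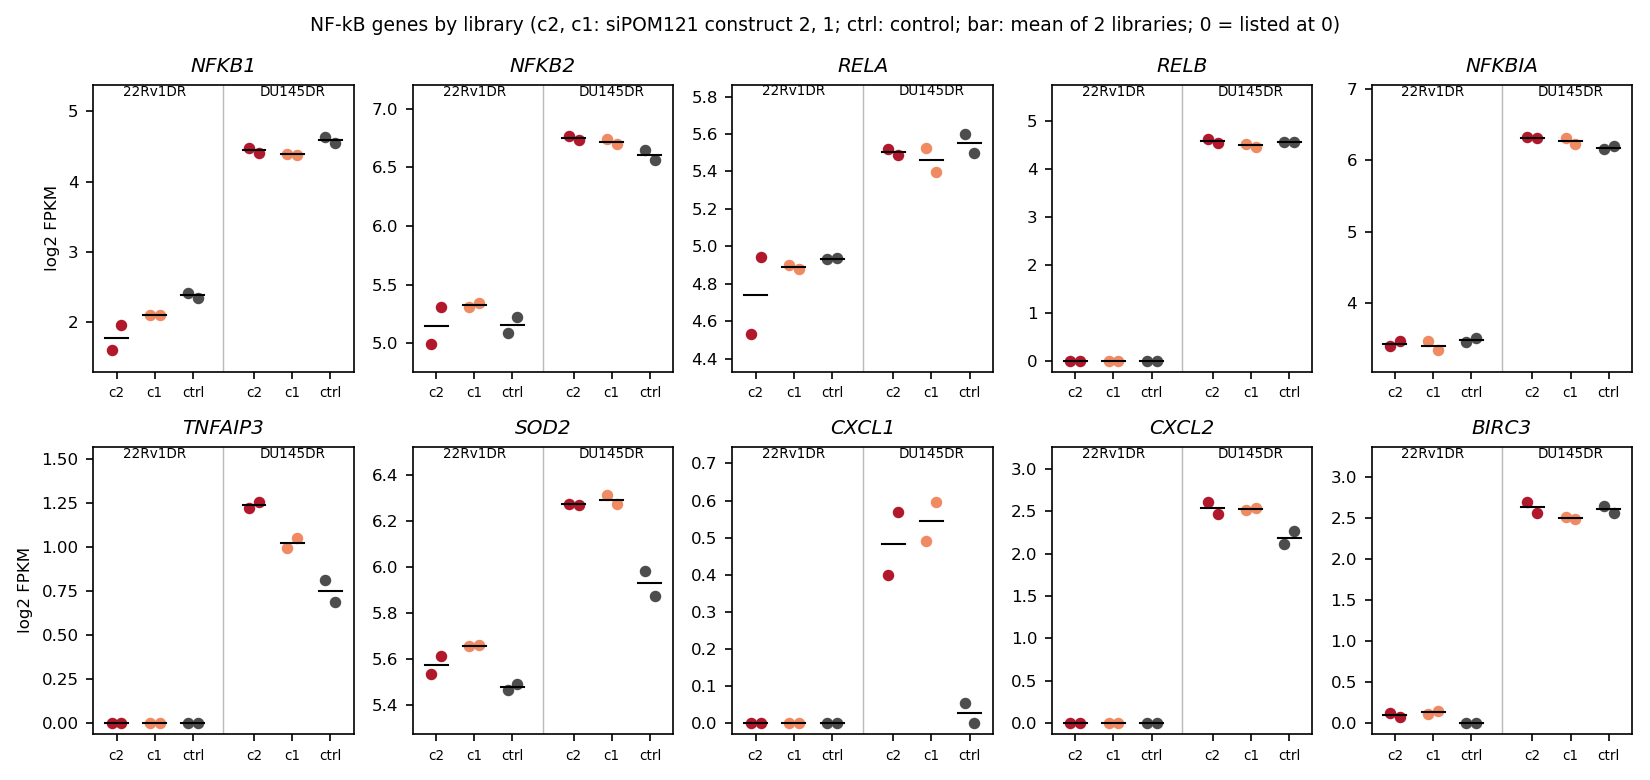
Log2 FPKM (y axis, scaled for each gene) of the 10 genes in each library, with a bar at the mean of the 2 libraries of a group; points at 0 are listed at 0. In DU145DR the construct libraries of TNFAIP3, SOD2, CXCL1 and CXCL2 lie above both controls. So do those of NFKB2 and NFKBIA, while those of NFKB1 lie below both, and NFKB2, NFKBIA and NFKB1 did not pass there. How many of all symbols separate in this way was not counted. RELB, TNFAIP3, CXCL1 and CXCL2 sit at 0 throughout 22Rv1DR.

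NFKB1 encodes p105, the precursor of the p50 subunit. In 22Rv1DR it stood at 3.03 and 3.89 FPKM with construct 2 and 4.29 and 4.28 with construct 1, against 5.36 and 5.07 in controls. All 4 construct libraries lay under both controls, and 4C was the lowest. NFKB1 fell by 0.60 ± 0.10 on the log2 scale with construct 2 (SE; limma, adjusted p = 0.00217, n = 2 libraries per group). Without 4C, which leaves 5C alone for construct 2, the log2 fold change was -0.42. Without 4A, which leaves 5A alone as control, it was -0.56. A group left with 1 library adds no spread to such a fit. With 22Rv1DR fitted alone the call was lost (adjusted p = 0.081), and it held in 20 of 21 alternatives. With construct 1 the log2 fold change was -0.28 ± 0.10 (adjusted p = 0.0618), which did not pass. In DU145DR NFKB1 stood at 22.2 and 21.3 FPKM with construct 2 and 21.1 and 20.9 with construct 1, against 24.8 and 23.4 in controls. Here too the 4 construct libraries lay under both controls, with log2 fold changes of -0.14 for construct 2 (adjusted p = 0.377) and -0.20 for construct 1 (adjusted p = 0.202) that did not pass. The wide gap between 4C and 5C enters the spread shared by all groups. Without either or both of them NFKB1 passed as lower with construct 1 in 22Rv1DR (adjusted p = 0.00128 without both) and in DU145DR with construct 2 (adjusted p = 0.0403 without both) and construct 1 (adjusted p = 0.0101), at the same fold changes.

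NFKB2 encodes p100, the precursor of p52. Its levels in 22Rv1DR were 31.9 and 39.5 FPKM with construct 2 and 39.6 and 40.5 with construct 1, against 34.1 and 37.3 in controls. The construct 2 libraries lay on either side of the controls, and the log2 fold change was -0.01 with construct 2 (95% interval -0.21 to 0.20) and 0.17 with construct 1 (adjusted p = 0.197). In DU145DR it stood at 109 and 106 FPKM with construct 2 and 107 and 104 with construct 1, against 99.9 and 94.7 in controls. All 4 construct libraries were above both controls, yet log2 fold changes of 0.14 with construct 2 (adjusted p = 0.329) and 0.11 with construct 1 (adjusted p = 0.436) did not pass. Without 5C it passed as lower with construct 2 in 22Rv1DR (-0.16, adjusted p = 0.044), and without 4C the value was 0.15 (adjusted p = 0.0779). Without either of them it passed as higher with construct 1 in 22Rv1DR (adjusted p = 0.0191) and with construct 2 in DU145DR (adjusted p = 0.0495). NFKB2 was the most abundant of the 4 subunits in both lines.

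RELA, the p65 subunit with the activation domain of the classical dimer, stood at 23.2 and 30.7 FPKM with construct 2 and 29.8 and 29.5 with construct 1 in 22Rv1DR, against 30.5 and 30.6 in controls. The low library was 4C; the log2 fold change with construct 2 was -0.20 (adjusted p = 0.193), and it was 0.01 without 4C and -0.40 without 5C (adjusted p = 0.000609). In DU145DR the levels were 46 and 45 FPKM with construct 2 and 46.1 and 42.2 with construct 1, against 48.5 and 45.3 in controls, with overlapping groups and log2 fold changes of -0.04 with construct 2 and -0.09 with construct 1. RELB, the partner of p52, was listed at 0 in all 12 samples of 22Rv1DR. DU145DR libraries held 24.6 and 23.4 FPKM with construct 2 and 23.2 and 21.9 with construct 1, against 23.6 and 23.5 in controls. Its 95% intervals there were -0.10 to 0.15 with construct 2 and -0.19 to 0.05 with construct 1. They use a spread shared with the 22Rv1DR libraries, which at 0 add none. Their width is therefore not comparable with that of the other subunits and may be too small.

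NFKBIA encodes IκBα, the inhibitor that holds RELA dimers in the cytoplasm and is itself made in response to them. In 22Rv1DR it stood at 10.5 and 11 FPKM with construct 2 and 11 and 10.1 with construct 1, against 10.9 and 11.4 in controls, with overlapping groups and log2 fold changes of -0.05 with construct 2 and -0.08 with construct 1. In DU145DR the levels were 80.0 and 79.8 FPKM with construct 2 and 79.7 and 75.3 with construct 1, against 71.4 and 73.3 in controls. All 4 construct libraries were above both controls, by 0.14 with construct 2 (95% interval 0.02 to 0.27, adjusted p = 0.116) and 0.10 with construct 1 (-0.03 to 0.22, adjusted p = 0.261) on the log2 scale, and neither passed.

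TNFAIP3 encodes A20, an enzyme that edits ubiquitin chains and shuts NF-kB signalling off. It was listed at 0 in every 22Rv1DR sample. Those libraries add no spread to the estimate shared by all groups, so SE and adjusted p in DU145DR may be too small. In DU145DR TNFAIP3 stood at 2.33 and 2.39 FPKM with construct 2 and 1.99 and 2.07 with construct 1, against 1.76 and 1.61 in controls. The groups did not overlap and kept the order construct 2, construct 1, control. TNFAIP3 rose by 0.49 ± 0.06 on the log2 scale with construct 2 (adjusted p = 0.00138) and by 0.27 ± 0.06 with construct 1 (adjusted p = 0.0153). The construct 2 result held in each alternative run, at 0.32 to 0.55. The construct 1 result did not: it was 0.21 without 2A, 0.24 without 2B and 0.11 with quantile normalization (adjusted p = 0.217). It was also lost with DU145DR fitted alone, with log2(FPKM + 1) and with the lower-numbered lane alone.

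SOD2, the mitochondrial superoxide dismutase and a classical NF-kB target, stood at 46.4 and 48.8 FPKM with construct 2 and 50.4 and 50.5 with construct 1 in 22Rv1DR, against 44.2 and 45 in controls. All construct libraries were above both controls. SOD2 rose by 0.18 ± 0.05 with construct 1 (adjusted p = 0.0222), and the 0.09 with construct 2 did not pass (adjusted p = 0.158). The construct 1 call was lost without 4A, 5A, 4B or 5B (adjusted p = 0.105, 0.0771, 0.102 and 0.105), at log2 fold changes of 0.17 to 0.19. DU145DR libraries held 77.4 and 77.1 FPKM of SOD2 with construct 2 and 79.4 and 77.2 with construct 1, against 63.2 and 58.6 in controls. The gap between constructs and controls was wider than the gap within any group. SOD2 rose by 0.34 ± 0.05 with construct 2 (adjusted p = 0.00205) and by 0.36 ± 0.05 with construct 1 (adjusted p = 0.0013) on the log2 scale, and both results held in each alternative run. SOD2 exons overlap those of ACAT2 (1141 bases) and WTAP (437 bases) on the opposite strand in GENCODE v29, and this library type does not keep the strand, so reads from the overlap cannot be told apart.

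CXCL1 and CXCL2 encode neighbouring chemokines that attract neutrophils, and both were listed at 0 in every 22Rv1DR sample. CXCL2 stood at 6.12 and 5.52 FPKM with construct 2 and 5.69 and 5.83 with construct 1 in DU145DR, against 4.32 and 4.80 in controls. All construct libraries were above both controls. CXCL2 rose by 0.35 ± 0.07 with construct 2 (adjusted p = 0.0112) and by 0.34 ± 0.07 with construct 1 (adjusted p = 0.0113) on the log2 scale. For both chemokines the 22Rv1DR libraries, all at 0, add no spread to the estimate shared by all groups. Their SE and adjusted p in DU145DR may therefore be too small. Neither CXCL2 call held with DU145DR fitted alone. The construct 2 call was also lost with the lower-numbered lane alone, and the construct 1 call with the higher-numbered lane alone. The call with construct 2 was lost without 1A (0.28, adjusted p = 0.0849) and without 1C (0.28, adjusted p = 0.0774), and that with construct 1 without 1A (0.26, adjusted p = 0.0857), 1B (0.36, adjusted p = 0.0526) and 2B (0.32, adjusted p = 0.0678). CXCL1 lay just over the floor, at 1.32 and 1.48 FPKM with construct 2 and 1.41 and 1.51 with construct 1, against 1.04 in control 1A and a listing at 0 in control 2A. It passed the filter on low values only through the construct libraries, and with controls at the floor a fall could not be seen. On the deposited scale, where a listing at 0 counts as 1 FPKM, CXCL1 rose by 0.46 ± 0.07 with construct 2 (adjusted p = 0.00355) and by 0.52 ± 0.07 with construct 1 (adjusted p = 0.00158). With log2(FPKM + 1), which takes 2A as 0 FPKM, the differences were 0.75 with construct 2 (adjusted p = 0.0897) and 0.79 with construct 1 (adjusted p = 0.0696) and did not pass. These chemokine genes are close copies: 9.24% of the 50-base windows of the longest CXCL2 transcript and 5.73% of those of CXCL1 also occur in the other members of the CXCL1, CXCL2 and CXCL3 group, so part of their reads could have been split between them.

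BIRC3 encodes cIAP2, a ubiquitin ligase at the TNF receptor that protects cells from death. In 22Rv1DR it lay at the floor, at 1.08 and 1.05 FPKM with construct 2 and 1.08 and 1.11 with construct 1, and was listed at 0 in both controls, so no fold change is given. One lane of 4C was also listed at 0. In DU145DR it stood at 6.5 and 5.89 FPKM with construct 2 and 5.69 and 5.59 with construct 1, against 6.28 and 5.92 in controls. The construct 2 group overlapped the controls and the construct 1 group lay just under them. Log2 fold changes of 0.02 with construct 2 (95% interval -0.13 to 0.17) and -0.11 with construct 1 (-0.26 to 0.04, adjusted p = 0.283) did not pass. BIRC3 holds the strict kB motif in the window printed above, as do CXCL2 and TNFAIP3, which rose in DU145DR. SOD2, which rose too, has no strict match in its windows.

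**Figure D2:**
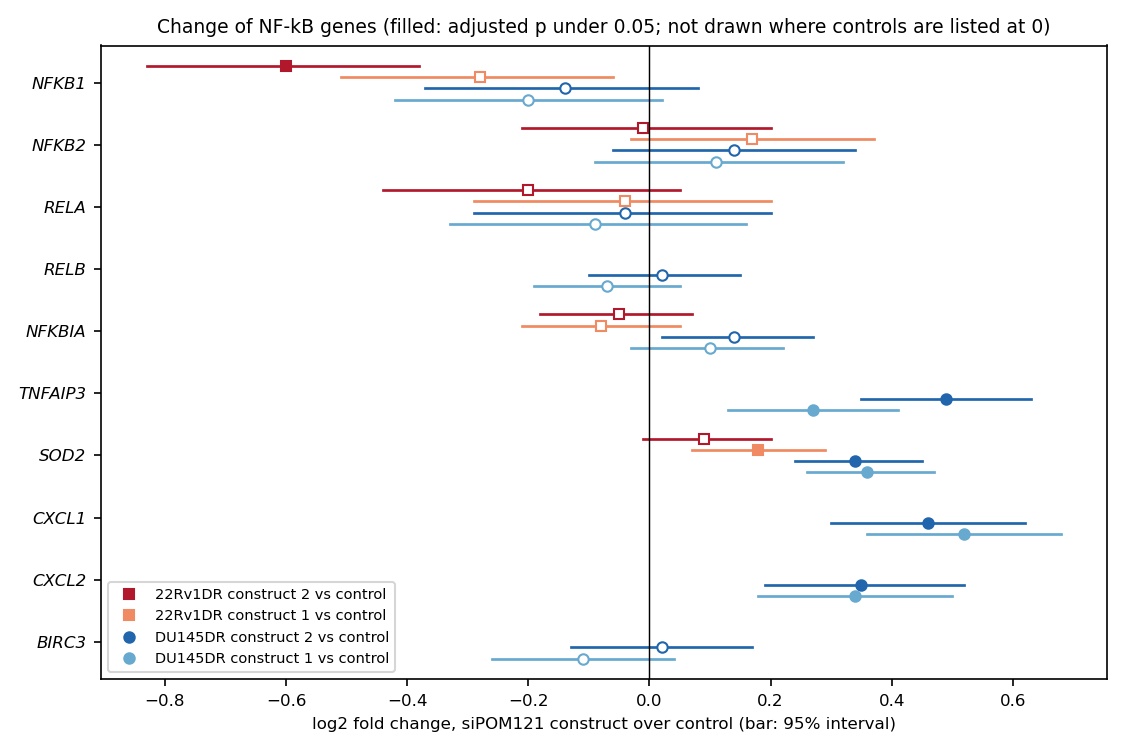
Log2 fold change of each siPOM121 construct over control (x axis) with its 95% interval for each gene and line; filled symbols passed an adjusted p of 0.05. The 4 genes that passed in DU145DR with both constructs lie between 0.27 and 0.52, and NFKB1 with construct 2 in 22Rv1DR lies at -0.60.

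No difference between construct 2 and construct 1 passed among the 10 genes in DU145DR in limma (0 of 10 called, 1 of 10 at an unadjusted p under 0.05; 0.0220% of all symbols called). The exception before adjustment was TNFAIP3, higher with construct 2 than with construct 1 by 0.22 (95% interval 0.08 to 0.36, adjusted p = 0.672). For SOD2 the difference between construct 2 and construct 1 lay between -0.13 and 0.09, for CXCL2 between -0.15 and 0.18 and for CXCL1 between -0.22 and 0.10. In 22Rv1DR, 0 of 6 genes were called (1 of 6 at an unadjusted p under 0.05; 11.6% of all symbols called). NFKB1 was lower with construct 2 than with construct 1 by -0.32 (95% interval -0.54 to -0.10, adjusted p = 0.068); without 5C it was -0.50 (adjusted p = 0.00028). Without 5C, which leaves 4C to stand for construct 2, NFKB2 (-0.33, adjusted p = 0.00222) and RELA (-0.36, adjusted p = 0.00168) also passed.

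The difference between lines was tested as the 22Rv1DR effect minus the DU145DR effect, for the 6 genes above the floor in both lines. With construct 2, NFKB1 (-0.46 ± 0.14, adjusted p = 0.0463) and SOD2 (-0.25 ± 0.07, adjusted p = 0.0315) passed, so 2 of 6 were called, both lower (13.2% of all symbols lower, 21.1% called in all). The log2 fold changes were -0.60 in 22Rv1DR and -0.14 in DU145DR for NFKB1, and 0.09 in 22Rv1DR and 0.34 in DU145DR for SOD2. Both differences were near the threshold. NFKB1 passed in 4 of 20 alternatives, with adjusted p of 0.000337 to 0.144; it did not pass when any one library of control, construct 1 or DU145DR construct 2 was left out, at -0.50 to -0.42. Its size turned on which construct 2 library of 22Rv1DR was kept, at -0.28 without 4C (adjusted p = 0.0232) and -0.64 without 5C (adjusted p = 0.000337). SOD2 passed in 11 of 20 and did not pass without 2A, 1C, 2C, 4A, 5A, 4B or 5B, at -0.26 to -0.19. With construct 1, 0 of 6 were called in limma (3 of 6 at an unadjusted p under 0.05, and 18.4% of all symbols called). SOD2 was at -0.18 (adjusted p = 0.0916) and NFKBIA at -0.18 (adjusted p = 0.152). The remaining gene was BIRC3 (0.24, adjusted p = 0.108). In 22Rv1DR BIRC3 is listed at 0 in both controls and lies just over the floor with the constructs, so its value is poorly bounded. TNFAIP3, CXCL1 and CXCL2 are listed at 0 in 22Rv1DR, so whether they respond there could not be seen. The lines also differ in how far POM121 itself fell, and its part in these differences was not tested.

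In control cells the 5 genes with a level above the floor in both lines were each lower in 22Rv1DR than in DU145DR (42.7% of all symbols were lower and 83.0% differed). NFKBIA was at 11.1 FPKM in 22Rv1DR controls, against 72.3 in DU145DR controls (-2.70 ± 0.06, adjusted p = 6.27e-11). NFKB1 was at 5.21 FPKM, against 24.1 in DU145DR (-2.21 ± 0.10, adjusted p = 1.57e-08). NFKB2 was at 35.6 FPKM in 22Rv1DR, against 97.3 in DU145DR (-1.45 ± 0.09, adjusted p = 1.66e-07). RELA was at 30.6 FPKM in 22Rv1DR, against 46.9 in DU145DR (-0.62 ± 0.11, adjusted p = 0.000459), and SOD2 at 44.6 in 22Rv1DR, against 60.8 in DU145DR (-0.45 ± 0.05, adjusted p = 1.14e-05). RELB, TNFAIP3, CXCL2 and BIRC3 were listed at 0 in both 22Rv1DR controls and stood at 23.6, 1.69, 4.55 and 6.10 FPKM in DU145DR controls. RELB, TNFAIP3 and CXCL2 passed the filter on low values through DU145DR alone, which fixed their direction, so these genes are not counted as lower. CXCL1, at the floor in DU145DR controls and listed at 0 in 22Rv1DR controls, did not pass. Per length of transcript, the order in 22Rv1DR controls was SOD2, NFKB2, RELA, NFKBIA and NFKB1. In DU145DR controls it was NFKB2, NFKBIA, SOD2, RELA, NFKB1, RELB, BIRC3, CXCL2, TNFAIP3 and CXCL1; NFKB1 and RELB, at 23.4 to 24.8 and 23.5 to 23.6 FPKM, overlapped, and no other neighbours did.

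**Figure D3:**
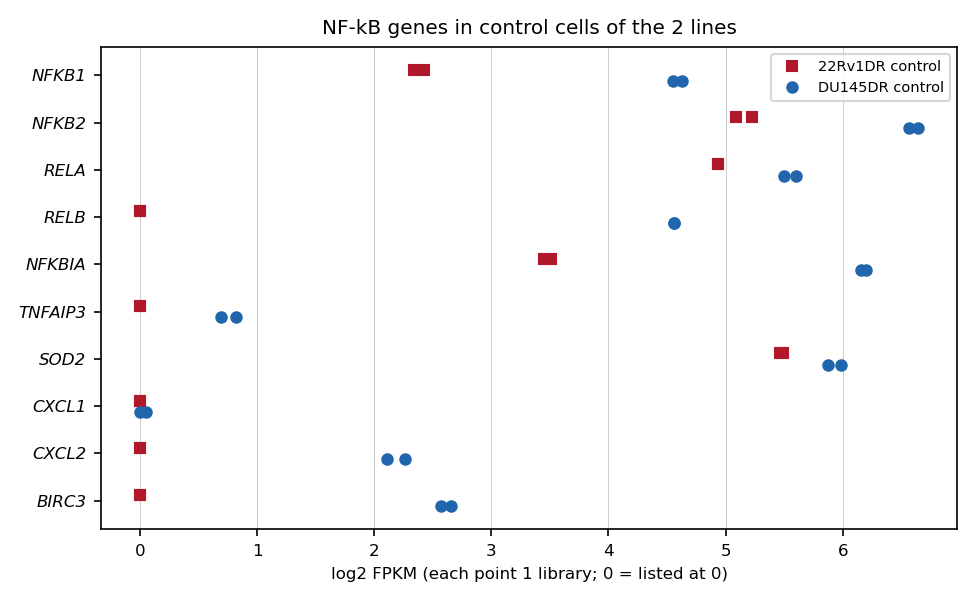
Log2 FPKM (x axis) of the 10 genes in the control libraries, 1 point per library, 22Rv1DR above DU145DR; 0 means listed at 0. The 5 genes with a level above the floor in both lines lie lower in 22Rv1DR, as 42.7% of all symbols did. Another 5 of the 10 sit at 0 there and are not counted as lower.

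A wider list of 88 other genes of the pathway was read by role, and 63 of them were tested. The 8 ligands on it, TNF, IL1A and IL1B among them, were listed at 0 in all 24 samples, as was the target IL6. In 22Rv1DR, 50 tested genes were above the floor: 11 rose, 11 fell and 28 did not pass with construct 2, and 6 rose, 3 fell and 41 did not pass with construct 1. Over all symbols 14.5% were higher and 20.6% lower with construct 2, and 12% higher and 15.2% lower with construct 1. The medians were 0.01 with construct 2 and -0.01 with construct 1. Counts with a library left out, here and for DU145DR, are given without the share of all symbols called. That share also moved between settings, so these counts are not facts about this list alone. The construct 2 count of 22 called was 13 without 4A and 7 without 5A, and the construct 1 count of 9 was 4 without 4B, 3 without 5B and 23 without 4C or 5C. In DU145DR, 59 were above the floor, and with each construct 10 rose, 4 fell and 45 did not pass (median 0.04 each). Over all symbols 16.6% passed with construct 2 and 19.8% with construct 1. The construct 2 count of 14 called was 28 without 4C or 5C, 16 higher and 12 lower. The construct 1 count of 14 was 7 without 2A, 3 higher and 4 lower, 8 without 1B or 2B, and 21 without 4C, 12 higher and 9 lower.

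**Figure D4:**
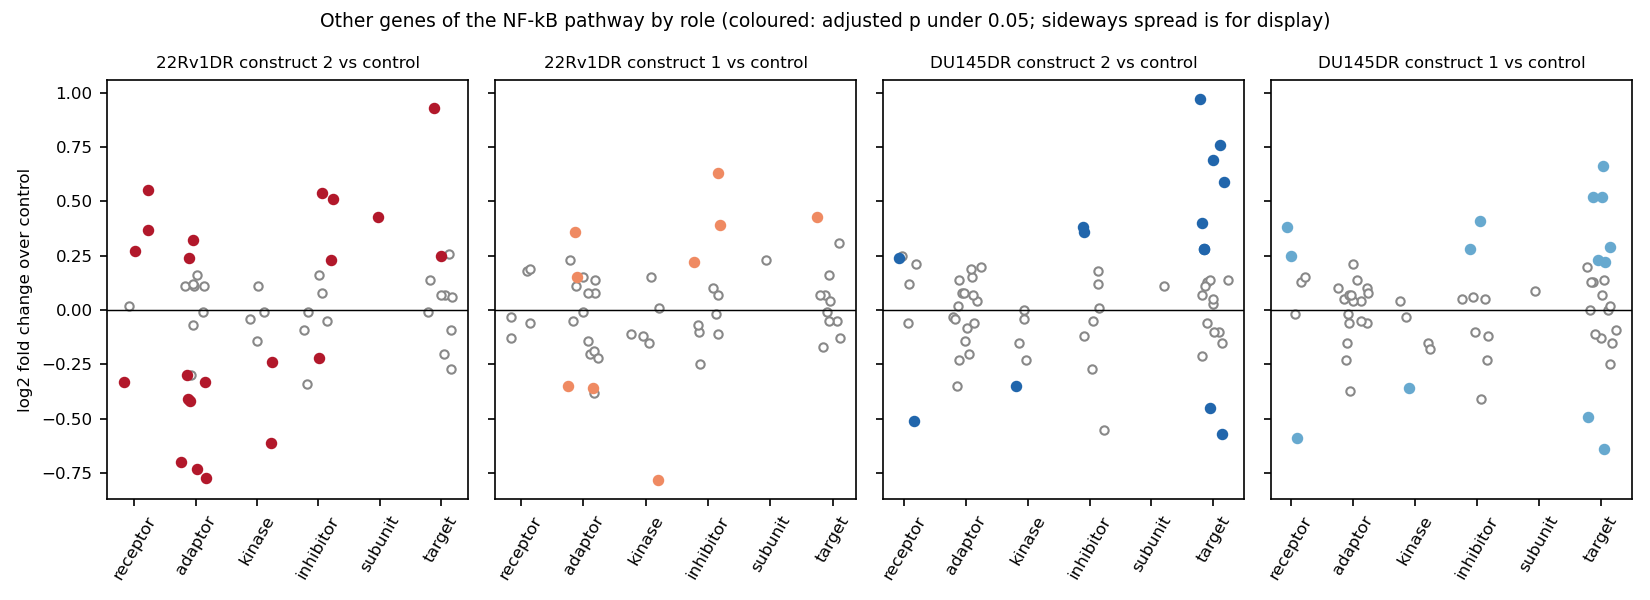
Log2 fold change over control (y axis) of the other pathway genes above the floor, by role, in the 4 comparisons of a construct with control; coloured points passed an adjusted p of 0.05 and values listed at 0 count as 1 FPKM. Adaptors lie between -0.77 and 0.32 with construct 2 in 22Rv1DR, and none of the 17 passed in DU145DR, where IRAK1 (both constructs), RIPK1 and TRAF2 (construct 2) passed without 4C or 5C.

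Of 17 adaptors, 7 fell and 2 rose with construct 2 in 22Rv1DR, and 2 fell and 2 rose with construct 1 (over all symbols 20.6% were lower and 14.5% higher with construct 2, and 15.2% lower and 12% higher with construct 1). In DU145DR none of the 17 passed with either construct, but this did not hold without 4C or 5C. Without 4C, IRAK1 passed there with construct 2 (-0.35, adjusted p = 0.00199) and construct 1 (-0.37, adjusted p = 0.00123), and RIPK1 (-0.23, adjusted p = 0.0103) and TRAF2 (-0.14, adjusted p = 0.0283) passed with construct 2, at the fold changes of the fit with all libraries. RIPK1, the scaffold kinase of the TNF receptor, stood at 3.44 and 4.41 FPKM with construct 2 and 4.95 and 5.19 with construct 1 in 22Rv1DR, against 6.56 and 6.34 in controls, and fell with construct 2 (-0.73 ± 0.10, adjusted p = 0.00101). Its -0.35 with construct 1 passed (adjusted p = 0.0309) but not without 1B, 2B, 4A, 5A, 4B or 5B (adjusted p of 0.0505 to 0.157). IRAK1, a kinase of the interleukin-1 receptor, stood at 19.8 and 28.3 FPKM with construct 2, and 30.5 and 31.3 with construct 1, against 40.2 and 40.4 in controls (construct 2 -0.77 ± 0.13, adjusted p = 0.0029). MYD88, its adaptor, stood at 2.76 and 4.01 FPKM with construct 2, and 5.68 and 5.05 with construct 1, against 5.46 and 5.36 in controls (construct 2 -0.70 ± 0.15, adjusted p = 0.0067). In all 3 of these genes 4C was the lower library, as it was for NFKB1 and RELA. Without 4C the log2 fold changes were -0.55 for RIPK1, -0.51 for IRAK1 and -0.43 for MYD88, and each still passed. With 22Rv1DR fitted alone none of them passed (adjusted p = 0.0603, 0.0933 and 0.12 in the same order of genes). TRAF2, the ubiquitin ligase at the TNF receptor, fell with both constructs in 22Rv1DR (construct 2 -0.30 ± 0.05, adjusted p = 0.00322; construct 1 -0.36 ± 0.05, adjusted p = 0.00141).

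Among the kinases, CHUK, the IKKα subunit, stood at 21.5 and 19.9 FPKM with construct 2 and 13.1 and 13.3 with construct 1 in 22Rv1DR, against 23.3 and 22.2 in controls. It fell with construct 1 (-0.78 ± 0.05, adjusted p = 2.03e-05), while -0.14 with construct 2 did not pass (adjusted p = 0.0723). Construct 2 and construct 1 differed by 0.65 for CHUK (adjusted p = 0.000477). MAP3K14, the NIK kinase of the alternative pathway, stood at 33.9 and 32.9 FPKM with construct 2 and 34.0 and 32.2 with construct 1 in DU145DR, against 44.4 and 40.9 in controls, and fell with both (construct 2 -0.35 ± 0.06, adjusted p = 0.00625; construct 1 -0.36 ± 0.06, adjusted p = 0.00438; construct 2 did not pass without 1A, -0.29, adjusted p = 0.0536). In 22Rv1DR the IKK-related kinase IKBKE (-0.61, adjusted p = 0.0324) and the IKKβ subunit IKBKB (-0.24, adjusted p = 0.0491) passed as lower with construct 2. Neither passed without 4C (-0.25 for IKBKE and -0.12 for IKBKB) nor when most other libraries were left out.

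Among receptors, TNFRSF12A, the TWEAK receptor, stood at 45.1 and 42.2 FPKM with construct 2 and 34.7 and 33.4 with construct 1 in 22Rv1DR, against 27.6 and 32.0 in controls; it rose with construct 2 (0.55 ± 0.07, adjusted p = 0.000607), and 0.19 with construct 1 did not pass (adjusted p = 0.0585). In DU145DR it stood at 89.3 and 89.5 FPKM with construct 2 and 85.3 and 84.4 with construct 1, against 126 and 129 in controls, and fell with both (construct 2 -0.51 ± 0.07, adjusted p = 0.0015; construct 1 -0.59 ± 0.07, adjusted p = 0.000634). TNFRSF1A, the main TNF receptor, rose in DU145DR by 0.24 with construct 2 (adjusted p = 0.0187) and by 0.25 with construct 1 (adjusted p = 0.0138) and was at 0.02 with construct 2 and -0.03 with construct 1 in 22Rv1DR, where it did not pass; the DU145DR call with construct 2 was lost without 2A, 1C or 2C (adjusted p = 0.134, 0.114 and 0.0639) and that with construct 1 without 2A or 1B (adjusted p = 0.104 and 0.101). Of the remaining subunit and inhibitors, REL rose with construct 2 in 22Rv1DR (0.43 ± 0.10, adjusted p = 0.0111; 0.26 without 4C, and not passing without 5A, adjusted p = 0.0834). NFKBIZ, a nuclear IκB protein, rose with both constructs there (0.54 ± 0.07 with construct 2, adjusted p = 0.000606, and 0.63 ± 0.07 with construct 1, adjusted p = 0.000215) and was listed at 0 in DU145DR. The inhibitor COMMD1 rose in 22Rv1DR by 0.51 ± 0.12 with construct 2 (adjusted p = 0.00948) and by 0.39 ± 0.12 with construct 1 (adjusted p = 0.0351). Neither COMMD1 call held with 22Rv1DR fitted alone or with the lower-numbered lane alone. In DU145DR CYLD, a deubiquitinase that restrains the pathway, rose with both (construct 2 0.36 ± 0.06, adjusted p = 0.00355; construct 1 0.41 ± 0.06, adjusted p = 0.00159), and so did BCL3, a nuclear cofactor of p50 and p52 (construct 2 0.38, adjusted p = 0.00807; construct 1 0.28, adjusted p = 0.0256). The BCL3 call with construct 2 was lost without 1A or 1C (adjusted p = 0.0622 and 0.0646), and that with construct 1 without 1A, 2A, 1B or 2B (adjusted p of 0.0737 to 0.144).

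Of 21 other targets above the floor in DU145DR, 7 rose and 2 fell with construct 2, and 6 rose and 2 fell with construct 1 (over all symbols 11% were higher and 5.62% lower with construct 2, and 12.2% higher and 7.62% lower with construct 1). CCL2, a chemokine for monocytes, stood at 4.34 and 5.08 FPKM with construct 2 and 2.97 and 4.03 with construct 1, against 2.54 and 2.28 in controls. It rose by 0.97 ± 0.13 with construct 2 (adjusted p = 0.00196) and by 0.52 ± 0.13 with construct 1 (adjusted p = 0.0236). The construct 1 call was lost without 2B (0.30), 1A (0.60) or 2A (0.44). With DU145DR fitted alone neither CCL2 call held (construct 2 adjusted p = 0.0639). CCL2, IL32 and LIF are listed at 0 in 22Rv1DR, so the limit given for CXCL2 on SE and adjusted p applies to them too. The cytokine IL32 rose by 0.40 ± 0.05 with construct 2 (adjusted p = 0.00149) and by 0.29 ± 0.05 with construct 1 (adjusted p = 0.0051). LIF, a cytokine of the interleukin-6 family, moved the other way (construct 2 -0.45 ± 0.07, adjusted p = 0.00299; construct 1 -0.49 ± 0.07, adjusted p = 0.00164). GADD45B, a stress-induced survival factor, stood at 23.5 and 18.9 FPKM with construct 2 and 14.2 and 15.7 with construct 1 in 22Rv1DR, against 10.7 and 11.4 in controls, and rose with both (construct 2 0.93 ± 0.10, adjusted p = 0.000447; construct 1 0.43 ± 0.10, adjusted p = 0.0143; with construct 1 it did not pass without 4A, adjusted p = 0.0911, or without 5B, adjusted p = 0.109). In DU145DR it stood at 34.7 and 31.2 FPKM with construct 2 and 29.9 and 32.8 with construct 1, against 49.4 and 48.1 in controls, and fell with both (construct 2 -0.57 ± 0.10, adjusted p = 0.0068; construct 1 -0.64 ± 0.10, adjusted p = 0.00333; construct 2 did not pass without 2C, -0.49, adjusted p = 0.0542).

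The genes whose pattern was most like the mean of the 6 inhibitor and target members, by Pearson r over the 12 libraries after centring within each line, were RGMA (0.987), PCDHB6 (0.987), HLA-DMA (0.986), SLC2A12 (0.985) and MCC (0.985). The likeness is a description over libraries that share groups, lanes and a line. RGMA, PCDHB6, HLA-DMA and MCC were listed at 0 in every 22Rv1DR group, so they did not vary there and their r reflects the DU145DR libraries. SLC2A12 lay at the floor in 22Rv1DR, at 1.02 FPKM with construct 2 and 1.05 with construct 1, and was listed at 0 in controls. In DU145DR controls PCDHB6 and MCC lay at the floor too (1.01 and 1.02 FPKM). HLA-DMA stood at 2.99 FPKM with construct 2 and 2.83 with construct 1 in DU145DR, against 1.85 in controls, and was listed at 0 in 22Rv1DR. PCDHB6 stood at 1.83 FPKM with construct 2 and 1.64 with construct 1 in DU145DR, against 1.01 in controls. RGMA stood at 1.51 FPKM with construct 2 and 1.40 with construct 1 there, and was listed at 0 in controls. It passed the filter on low values only through the construct libraries, which fixed its direction.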

How the data were processed

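Poly(A)-selected RNA from 22Rv1DR and DU145DR cells was sequenced as 12 libraries on 2 lanes each. Per the submitters' processing notes TopHat and Cufflinks were used, with the builds hg19 and mm10; versions are not given in the sources used here. The deposited values are log2 FPKM per gene line, made by the authors, with values at or under 1 FPKM listed at 0; base 2 was read from the values, which are powers of 2 to 6 digits. Read counts were not used here, so depth is unknown and no counting interval is given. For each library the mean log2 value of its lanes was taken. Symbols with both lanes over the floor in at least 2 of 12 libraries were tested (13622 of 25277), using for a repeated symbol its line of highest mean. limma 3.58.1 in R 4.3.3, with trend and robust moderation, fitted all 6 groups together (6 residual degrees of freedom), for 9 comparisons, with Benjamini-Hochberg adjustment over all tested symbols. Tested on simulated data, 50 of 50 genes changed by 0.5 and 22 of 50 changed by 0.25 on the log2 scale were called. Whether these rates hold for RELB, TNFAIP3, CXCL1 and CXCL2, listed at 0 throughout 22Rv1DR, was not tested. Nor was it tested whether they hold with a gap like that between 4C and 5C. Alternatives were log2(FPKM + 1), no filter, quantile normalization, array weights, plain moderation, a replicate block, each line alone, each lane alone and each library left out; leaving out 4C and 5C together was added after seeing the data. The members and lists were chosen with earlier results of these data known. Other pathway genes are named as up to 4 per role with the smallest adjusted p in the construct comparisons. The receptors IL1R1 and IL1RAP also meet this rule and are not described. Promoter windows came from RefSeq on GRCh38.p14 and are not the build of the values; exon overlaps came from GENCODE v29.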

Additional observations from a re-analysis of the deposited data

Results flagged for a closer look

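In these genes the effect of a construct differed between the lines by the test of the difference itself (22Rv1DR effect minus DU145DR effect on the log2 scale; limma, adjusted p under 0.05, 2 libraries per group). Among the NF-kB genes these were NFKB1 (-0.46) and SOD2 (-0.25), both with construct 2. For construct 2 the other pathway genes named in the text were GADD45B (1.49), TNFRSF12A (1.07), COMMD1 (0.63), MAP3K14 (0.46), BCL3 (-0.39), RIPK1 (-0.50) and MYD88 (-0.84), and the list also held BIRC2 (0.40) and SHARPIN (-0.48). For construct 1 those named were GADD45B (1.07), TNFRSF12A (0.78), MAP3K14 (0.51), TNFRSF1A (-0.28), TRAF2 (-0.30), CYLD (-0.31) and CHUK (-0.76), and the list also held BIRC2 (0.38) and SDC4 (-0.28). BIRC2, SHARPIN and SDC4 fall outside the rule for named genes and were chosen after their values were seen. GADD45B, TNFRSF12A and MAP3K14 passed in every alternative run with both constructs, as did CHUK with construct 1. NFKB1 passed in 4 of 20 alternatives. With construct 2, RIPK1 passed in 9 of 20, BCL3 and SOD2 in 11, MYD88 in 13 and COMMD1 in 14. With construct 1, TNFRSF1A and CYLD passed in 10 of 21 and TRAF2 in 13. Of 46 other pathway genes above the floor in both lines, 5 were called higher and 4 lower with construct 2. With construct 1, 4 were called higher and 5 lower. Over all symbols 21.1% were called with construct 2 and 18.4% with construct 1. POM121 was depleted less in DU145DR (-0.74 and -0.67 with constructs 2 and 1) than in 22Rv1DR (-2.43 and -2.30), and its part in these differences was not tested.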

How the results depend on the processing

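No fold change that passed turned its sign in an alternative. Some that did not pass did, among them with construct 2 in 22Rv1DR RELA (-0.20; 0.01 without 4C) and NFKB2 (-0.01; 0.15 without 4C and 0.06 with quantile normalization). Of the 10 genes, the count called with construct 1 in 22Rv1DR (1) was 2 with log2(FPKM + 1) and with quantile normalization, 3 with array weights and without 4C and 5C, 0 with the line fitted alone and with the lower-numbered lane, and 0 to 3 leaving out each library. With construct 2 there (1) it was 2 with log2(FPKM + 1) and with quantile normalization, 0 with the line alone and 1 to 3 leaving out libraries. In DU145DR with construct 1 (4) it was 2 with log2(FPKM + 1) and with the line alone and 2 to 5 leaving out libraries, and with construct 2 (4) it was 3 to 6. Construct 2 against construct 1 in 22Rv1DR (0) gave 1 with quantile normalization and 0 to 3 leaving out libraries. The line difference with construct 1 (0) gave 1 with log2(FPKM + 1), with quantile normalization and without 4C and 5C, 2 with array weights, and 0 to 1 leaving out libraries. That with construct 2 (2) gave 1 with no filter, array weights, plain moderation and the higher-numbered lane, 0 with the lower-numbered lane and 0 to 5 leaving out libraries. With the replicate block it gave 1, NFKB1 being lost (adjusted p = 0.0619), and the block changed no other call of these genes; same-numbered libraries correlated at -0.10 to 0.13 and share only a number. The number of all symbols called moved between settings too, so these counts are not facts about the 10 genes alone. For DU145DR construct 1 it was 2700 of 13622 in the fit described above and 2630 with log2(FPKM + 1). It was 2598 with the line alone, 4680 with array weights and 1943 with the lower-numbered lane. Quantile normalization moved the share of higher calls over all symbols to 54.5%, against 66.1%, for DU145DR construct 2, and to 49.2%, against 37.5%, for the line difference with construct 2. Other calls lost with the line fitted alone were SOD2, GADD45B and RIPK1 with construct 1 and REL, IKBKB and IKBKE with construct 2 in 22Rv1DR. In DU145DR they were TNFRSF1A with both constructs and BCL3 with construct 1. The CHUK difference between constructs was lost too (adjusted p = 0.056). The gene gained with log2(FPKM + 1) in 22Rv1DR and in the line difference was BIRC3, whose 22Rv1DR controls are listed at 0. With 2 libraries per group, a floor at 1 FPKM and unknown depth, changes in low genes such as CXCL1 and BIRC3 are poorly bounded.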
